A study of Mus musculus with 8 samples.

Results

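Mitochondria translate the few proteins encoded in their own DNA with a dedicated set of aminoacyl-tRNA synthetases, enzymes that each join 1 kind of amino acid to its transfer RNA. Nearly all of these enzymes are encoded by nuclear genes other than those of the cytosolic set and are imported after translation. The gene *Lars2* encodes the enzyme that charges mitochondrial leucine tRNA, and the other members here do the same for alanine (*Aars2*), glutamate (*Ears2*), histidine (*Hars2*), isoleucine (*Iars2*), asparagine (*Nars2*), arginine (*Rars2*), valine (*Vars2*) and tyrosine (*Yars2*). These 9 genes were taken by symbol from the 41388 features counted in each library, and all 9 passed the filter on low counts that left 12270 genes. *Lars2* was chosen because its level was already known to be lower after AdNAMPT in these data, so its difference is described without a test. The question was whether the other 8, which were chosen by function, differed too.

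Liver RNA was sequenced from db/db mice, which lack a working leptin receptor and become obese and diabetic. This mutation was shared by both groups, although the genotype label of the AdGFP libraries reads control and that of the AdNAMPT libraries NAMPT overexpression. The strain label was C57B/6J, the mice were described as male littermates randomised at 5 weeks of age, and they were 10 weeks old at sampling. Each mouse received adenovirus by tail vein, encoding green fluorescent protein in AdGFP (n = 4) and nicotinamide phosphoribosyltransferase (NAMPT), an enzyme that recycles nicotinamide to NAD, in AdNAMPT (n = 4). The promoter of the vector was not given in the sources used here. The tissue is bulk liver, so fewer cells of a type and less RNA per cell cannot be told apart.

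Libraries held 12006713 to 19879814 counts, and 34 of the 12270 genes changed (limma, adjusted p at most 0.05), 2 higher and 32 lower in AdNAMPT (8 higher and 31 lower with library size alone as the scaling). Summed hepatocyte markers lay between 106394 and 134856 CPM (counts scaled to a fixed library total) in all libraries, as the tissue label states. The gene *Nampt* did not tell the groups apart, with 102, 137, 153 and 142 CPM in AdGFP and 149, 120, 178 and 168 CPM in AdNAMPT (log2 fold change 0.08, limma adjusted p = 0.915), so the group labels could not be checked with it. AdGFP replicate 2 stood apart in nuclear ribosomal RNA features, which took 0.0657% of its counts against at most 0.000767% elsewhere, and AdNAMPT replicate 1 had the lowest sample weight in the fit (0.440). The difference in *Lars2* was -2.68 on the log2 scale without the former and -2.74 without the latter.

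The promoters of 3 members are shown, *Lars2* for its difference between the groups and *Rars2* and *Nars2* for the smallest unadjusted p among the others, in opposite directions. Each run covers the bases before and just after the RefSeq transcript start on GRCm38.p6, written 5′ to 3′ on the gene's strand. Capitals mark short cores of motifs that are common in promoters of genes for mitochondrial proteins. These cores were GCATGCG (NRF1), CCGGAAG (ETS factors) and ATGGCGG (YY1), searched on both strands, and the NRF1 letters overlap their own reverse complement.
Lars2, chr9:123366677-123366976, plus strand: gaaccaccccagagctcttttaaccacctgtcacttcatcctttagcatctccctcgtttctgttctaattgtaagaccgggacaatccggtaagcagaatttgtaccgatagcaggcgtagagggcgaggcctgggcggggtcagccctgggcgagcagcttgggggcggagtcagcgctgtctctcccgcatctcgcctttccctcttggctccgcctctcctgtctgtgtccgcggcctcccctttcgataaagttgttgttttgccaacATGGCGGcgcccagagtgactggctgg
Rars2, chr4:34614707-34615006, plus strand: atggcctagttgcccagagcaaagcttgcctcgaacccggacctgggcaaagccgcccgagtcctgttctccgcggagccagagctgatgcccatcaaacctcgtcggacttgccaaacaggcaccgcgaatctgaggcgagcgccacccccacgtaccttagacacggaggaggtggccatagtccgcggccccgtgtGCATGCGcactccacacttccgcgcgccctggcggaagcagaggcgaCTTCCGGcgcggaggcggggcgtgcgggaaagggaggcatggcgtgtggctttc
Nars2, chr7:96951277-96951576, plus strand: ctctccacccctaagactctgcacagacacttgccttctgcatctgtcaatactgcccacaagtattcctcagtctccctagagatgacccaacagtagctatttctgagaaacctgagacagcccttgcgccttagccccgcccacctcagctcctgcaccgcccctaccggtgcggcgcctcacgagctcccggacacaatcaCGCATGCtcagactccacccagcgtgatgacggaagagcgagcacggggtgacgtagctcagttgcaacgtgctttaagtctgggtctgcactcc
Promoters were matched for 8 of the 9 members, all but *Hars2*. The NRF1 core lay in 4 of them (*Rars2*, *Nars2*, *Yars2* and *Vars2*) and in 3.58% of the 32851 mouse promoters of the same length. The YY1 core lay in 4 (*Ears2*, *Lars2*, *Yars2* and *Aars2*) and in 4.05% of all, and the ETS core in *Rars2* alone and in 8.86% of all. All 4 YY1 matches began after the transcript start, by 44 bases in *Ears2*, 24 in *Lars2*, 20 in *Yars2* and 23 in *Aars2*. Neither other core was present in *Lars2*. A match describes letters only, and *Rars2* and *Nars2*, whose estimates lay on opposite sides of 0, both held the NRF1 core.

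*Lars2* (ENSMUSG00000035202, chr9:123366940-123462664, plus strand, GRCm38) was 6.68-fold lower in AdNAMPT than in AdGFP. Its level was 3302, 3571, 2555 and 2925 CPM in AdGFP replicates 1 to 4 and 522, 448, 450 and 554 CPM in AdNAMPT replicates 1 to 4. The groups were far apart, since the lowest AdGFP library held more than the highest AdNAMPT library by a wide margin. Over 4 mice per group the mean ± SD was 3088 ± 443 CPM after AdGFP and 493 ± 52.6 CPM after AdNAMPT, and the estimated log2 fold change was -2.74 (SE 0.12, 95% confidence interval -3.01 to -2.48). Behind these values stood 40024 to 50576 reads per library in AdGFP and 6263 to 9391 in AdNAMPT, so that counting error was small against the spread between mice. *Lars2* took 0.256 to 0.357% of all counts in AdGFP and 0.0448 to 0.0554% in AdNAMPT. It ranked 37th of all features by mean CPM in AdGFP and 264th in AdNAMPT, and its log2 fold change was the 11th most negative of the 12270 genes. Summed markers of Kupffer cells and macrophages were 254 to 312 CPM in AdGFP and 182 to 304 CPM in AdNAMPT, with none of the 6 markers at 0 and all 6 estimates below 0, and their part in the difference was not tested.

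None of the other 8 members changed. In limma, 0 of 8 had an adjusted p at most 0.05, where 0.277% of all genes did (0.261% lower and 0.0163% higher in AdNAMPT), and edgeR's quasi-likelihood test and DESeq2 also called 0. The adjusted p ranged from 0.492 to 0.954. Their log2 fold changes ran from -0.21 to 0.22, with 5 above 0 and 3 below, and their median was 0.04 beside 0.0015 for all genes. Unadjusted p was under 0.05 in 2 of the 8, 1 lower and 1 higher, against 9.69% of all genes, 5.04% lower and 4.65% higher. The 95% confidence intervals of all 8 lay between -0.40 and 0.43 on the log2 scale, which leaves room for differences of up to 1.32-fold lower or 1.35-fold higher, and not for one of the size seen in *Lars2*. Each of the 8 was counted from 113 to 1666 reads per library.

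**Figure D1:**
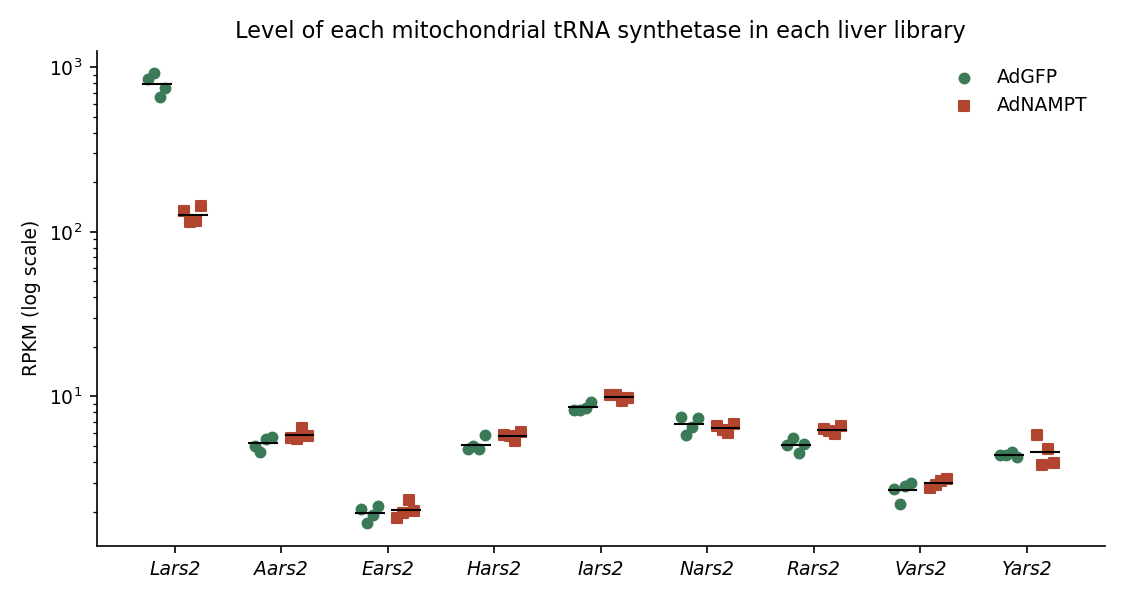
Counts scaled for library size and exonic length (RPKM, log axis) of the 9 genes, with a point for each library (circles AdGFP, squares AdNAMPT) and a bar at each group mean. *Lars2* fell from a mean of 796 to 127 RPKM, whereas the other 8 genes reached at most 10.3 RPKM in any library.

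2 members had the smallest unadjusted p, and their estimates had opposite signs. *Rars2*, for arginine (chr4:34614957-34660167, plus strand), stood at 14.0, 15.5, 12.6 and 14.2 CPM in AdGFP and 17.6, 17.1, 16.4 and 18.4 CPM in AdNAMPT. Every AdNAMPT library was above every AdGFP library on this scale, by a narrow margin, and the groups overlapped once levels were scaled by TMM, the trimmed mean of M-values. Its log2 fold change was 0.22 (SE 0.09, 95% confidence interval 0.02 to 0.43, limma unadjusted p = 0.0336, adjusted p = 0.492). *Nars2*, for asparagine (chr7:96951505-97064761, plus strand), stood at 31.4, 24.5, 27.6 and 31.0 CPM in AdGFP and 27.8, 26.3, 25.4 and 28.6 CPM in AdNAMPT. The groups overlapped, with AdGFP replicate 2 the lowest of all 8 libraries. Its log2 fold change was -0.21 (SE 0.09, 95% confidence interval -0.40 to -0.02, limma unadjusted p = 0.0363, adjusted p = 0.492). Neither passed the threshold after adjustment over all genes.

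*Iars2*, for isoleucine (chr1:185284726-185329396, minus strand), stood at 73.3, 73.7, 75.9 and 82.7 CPM in AdGFP and 90.3, 91.2, 83.8 and 86.9 CPM in AdNAMPT. All 4 AdNAMPT values were the higher ones on the CPM scale, and the groups overlapped after TMM scaling (log2 fold change 0.11, SE 0.07, limma adjusted p = 0.655). On the CPM scale, *Iars2* and *Rars2* were thus 2 of 8 members higher without overlap, where 7.36% of all genes were. None of the 8 was lower without overlap, where 0.856% of all genes were, which makes 8.22% in either direction. On the TMM scale 0 of 8 were free of overlap in either direction, where 4.79% of all genes were (2.7% lower and 2.09% higher). The TMM factors were 0.947 to 0.977 in AdGFP and 1.01 to 1.05 in AdNAMPT, and with library size alone the median log2 fold change of all genes was 0.09.

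*Aars2*, for alanine (chr17:45506841-45520842, plus strand), stood at 16.7, 15.5, 18.4 and 19.0 CPM in AdGFP and 18.7, 18.4, 21.5 and 19.4 CPM in AdNAMPT, with overlapping groups and a log2 fold change of 0.06 (SE 0.08, limma adjusted p = 0.872). *Hars2*, for histidine (chr18:36783008-36792562, plus strand), stood at 20.4, 21.5, 20.4 and 24.8 CPM in AdGFP and 24.9, 24.6, 22.8 and 25.9 CPM in AdNAMPT. Its groups overlapped through AdGFP replicate 4, with a log2 fold change of 0.07 (SE 0.09, limma adjusted p = 0.847). *Vars2*, for valine (chr17:35655634-35667592, minus strand), stood at 15.0, 12.1, 15.6 and 16.3 CPM in AdGFP and 15.2, 15.8, 16.7 and 17.3 CPM in AdNAMPT. AdGFP replicate 2 was its lowest library and the remaining values were close together (log2 fold change 0.03, SE 0.09, limma adjusted p = 0.954).

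*Ears2*, for glutamate (chr7:122037213-122067263, minus strand), was the least expressed member per length and stood at 10.7, 8.75, 9.80 and 11.2 CPM in AdGFP and 9.41, 10.0, 12.2 and 10.4 CPM in AdNAMPT. Its groups overlapped fully, with a log2 fold change of -0.04 (SE 0.11, limma adjusted p = 0.948) whose sign turned under 4 of the 17 alternatives. *Yars2*, for tyrosine (chr16:16302965-16309640, plus strand), stood at 13.9, 13.9, 14.5 and 13.4 CPM in AdGFP and 18.5, 12.02, 15.2 and 12.4 CPM in AdNAMPT. The AdNAMPT libraries enclosed the AdGFP ones on both sides, and AdNAMPT replicate 1 was the highest (log2 fold change -0.14, SE 0.11, limma adjusted p = 0.732). Mean CPM went the other way from this estimate, at 13.95 in AdGFP and 14.52 in AdNAMPT. For *Vars2* the sign turned under 2 of the 17 alternatives, and the other 6 of these 8 genes kept theirs.

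Some members share genomic bases with a gene on the opposite strand, and whether counting used strand was not stated. The methods describe counts of unambiguous reads, so reads in such an overlap may have been left out. Exons overlapped between *Iars2* and *Rab3gap2*, *Vars2* and Gm20483, *Nars2* and C230038L03Rik, *Hars2* and *Hars*, and *Ears2* and *Ubfd1*. In the member's longest coding transcript the longest run shared with that gene was 2034, 130, 284, 195 and 89 bases, in the order given. *Lars2*, *Aars2*, *Rars2* and *Yars2* had no such overlap.

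**Figure D2:**
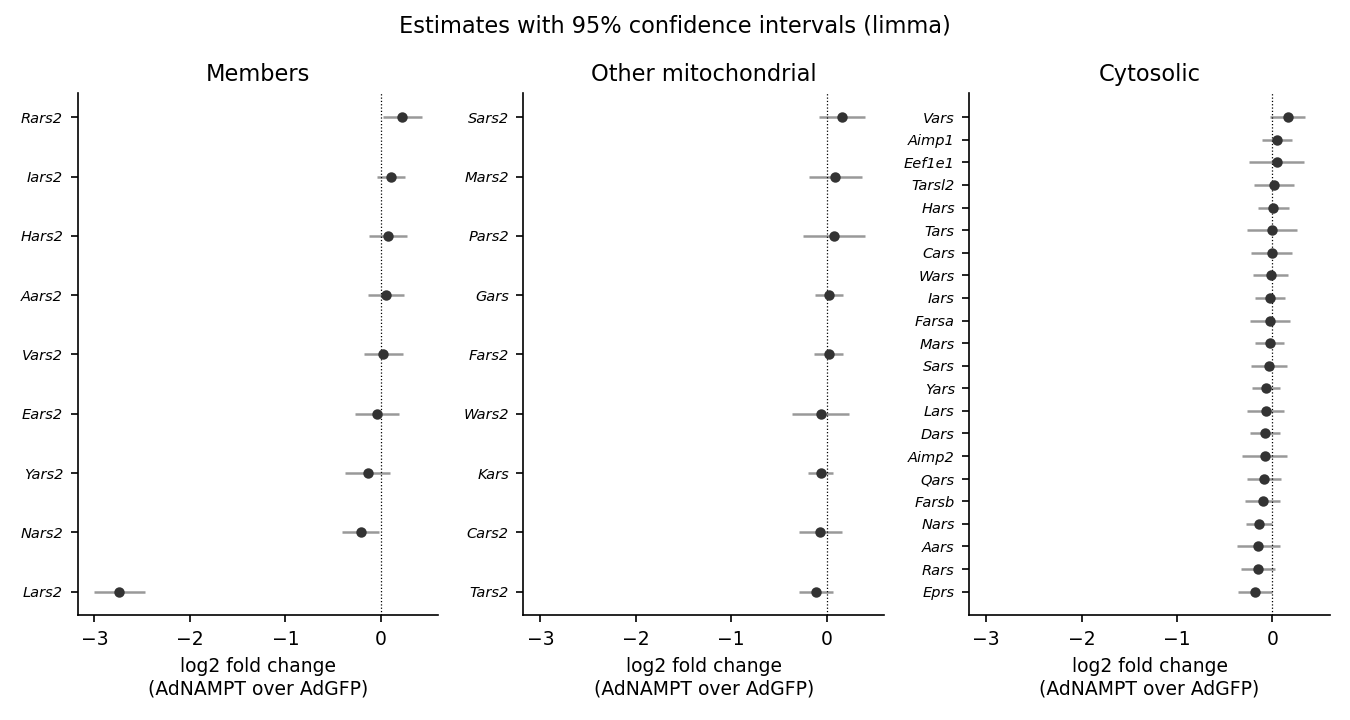
Log2 fold change of AdNAMPT over AdGFP with 95% confidence intervals from limma for the 9 members, 9 other mitochondrial synthetases and the 22 cytosolic synthetase genes (n = 4 mice per group). *Lars2* lies at -2.74, while every other point lies between -0.21 and 0.22.

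Counts per length set *Lars2* apart from its family in both groups. Whether all reads counted for *Lars2* came from its own transcript was not tested. In AdGFP *Lars2* stood at 796 ± 114 RPKM, and *Iars2*, the next of the 9, at 8.60 ± 0.492 RPKM, a ratio of 92.6. In AdNAMPT the values were 127 ± 13.6 and 9.91 ± 0.381 RPKM, a ratio of 12.8. Below *Iars2*, the order by RPKM in AdGFP was *Nars2* (6.80), *Aars2* (5.19), *Hars2* (5.09), *Rars2* (5.08), *Yars2* (4.43), *Vars2* (2.70) and *Ears2* (1.96). The ranges of neighbours overlapped from *Aars2* to *Yars2*, so these 4 had no clear order, while the remaining steps were larger than the spread. In AdNAMPT the order was *Nars2* (6.42), *Rars2* (6.27), *Aars2* (5.83), *Hars2* (5.74), *Yars2* (4.61), *Vars2* (2.97) and *Ears2* (2.04), with neighbours overlapping from *Nars2* to *Yars2*. *Lars2* was also far above its cytosolic counterpart *Lars*, 63.7 times by mean RPKM in AdGFP and 9.92 times in AdNAMPT.

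The 9 further mitochondrial synthetase genes analysed gave no call either. Among them were *Gars* and *Kars*, whose products serve both compartments. In limma 0 of 9 changed, 0 had an unadjusted p under 0.05, and edgeR and DESeq2 called 0. There were 5 estimates above 0 and 4 below, with a median log2 fold change of 0.02. The highest was *Sars2*, for serine (0.16, SE 0.11, limma adjusted p = 0.675), and the lowest *Tars2*, for threonine (-0.11, SE 0.08, limma adjusted p = 0.698). Confidence intervals lay between -0.36 and 0.41. By RPKM in AdGFP the most expressed of these were *Kars* (23.2), *Fars2* (17.8) and *Gars* (15.4), and the least was *Mars2* (0.660), so *Lars2* exceeded all 17 other mitochondrial synthetase genes analysed in both groups.

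No separate enzyme charges mitochondrial glutamine tRNA, which is made by amidation of a glutamate-loaded tRNA through *Gatb*, *Gatc* and *Qrsl1*, and *Mtfmt* adds the formyl group to the initiator methionine. In limma, edgeR and DESeq2 0 of these 4 genes changed, 1 had an unadjusted p under 0.05 in limma, and all 4 estimates were below 0 with a median of -0.07. The lowest was *Gatc* (-0.27, SE 0.12, limma adjusted p = 0.504), whose groups overlapped, and the highest *Qrsl1* (-0.0022). Among 22 genes for cytosolic synthetases and their partner proteins, limma, edgeR and DESeq2 called 0, with 2 at an unadjusted p under 0.05 in limma, both lower, 5 estimates above 0 and 17 below, and a median of -0.03. Of all genes, 5.04% were lower at that unadjusted threshold.

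Each member has a counterpart that serves the cytosol, and none of these passed the threshold in limma. *Lars*, which loads leucine in the cytosol, had a log2 fold change of -0.07 (adjusted p = 0.848) at 12.5 ± 0.881 RPKM in AdGFP and 12.8 ± 1.21 in AdNAMPT. The extremes of the cytosolic list were *Eprs*, for glutamate and proline (-0.19, SE 0.08, adjusted p = 0.503), and *Vars*, for valine (0.16, SE 0.08, adjusted p = 0.589). The log2 fold changes of the others were -0.15 for *Aars*, 0.01 for *Hars*, -0.03 for *Iars*, -0.14 for *Nars*, -0.15 for *Rars* and -0.07 for *Yars*. *Nars* was the only gene of this list whose TMM-scaled groups did not overlap, lower in AdNAMPT, with an adjusted p of 0.500, where 2.7% of all genes were lower without overlap.

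The machinery that uses charged mitochondrial tRNA gave no call in limma, edgeR or DESeq2 either. Of 74 mitochondrial ribosomal protein genes tested, 0 changed. An unadjusted p under 0.05 was reached by 8 lower ones (10.8%, against 5.04% of all genes) and 2 higher ones (2.70%, against 4.65% of all genes), and the median log2 fold change was -0.03 with 28 estimates above 0 and 46 below. Its extremes were *Mrpl4* (0.23, SE 0.10, limma adjusted p = 0.492) and *Mrps6* (-0.39, SE 0.17, limma adjusted p = 0.507), which encode proteins of the large and the small subunit. Of 18 genes that process or modify mitochondrial tRNA, 0 changed, with a median of -0.01. In limma 2 had an unadjusted p under 0.05, 1 lower and 1 higher, against 9.69% of all genes in either direction. The extremes were *Pus1*, a pseudouridine synthase (0.26, SE 0.10, limma adjusted p = 0.453), and *Nsun2*, a tRNA methyltransferase (-0.19, SE 0.07, limma adjusted p = 0.465). Of 19 factors for mitochondrial translation and transcription, 0 changed and 0 had an unadjusted p under 0.05, with a median of -0.02 and extremes at *Guf1* (0.10) and *Mtrf1* (-0.13).

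The substrates of the LARS2 enzyme were hardly sampled. The mitochondrial leucine tRNA genes mt-Tl1 and mt-Tl2 were counted at 6 to 18 and 7 to 22 reads per library, with overlapping groups, and neither passed the filter. Whether charging or the amount of these tRNAs differed was not measurable in these libraries.

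*Lars2* followed features outside its family far more closely than any member. Likeness was measured as the root mean square difference between log2 CPM profiles over the 8 libraries, each centred on its own mean. The 5 nearest of 12270 genes were Mir6236 (0.122), Gm15564 (0.137), *Gprin1* (0.140), Gm25732 (0.155) and *Zswim5* (0.185), beside a median of 1.39 over all genes. Mir6236 and Gm25732 are annotated as microRNA genes, Gm15564 as an antisense transcript, and *Gprin1* and *Zswim5* as protein coding. Of the members, *Nars2* was nearest at 1.30 (rank 1279) and *Rars2* farthest at 1.48 (rank 9880). The log2 fold changes of the 5 were -2.74, -2.74, -2.62, -2.84 and -2.38 in the order given. Since the measure spans both groups, it finds genes with a like difference by construction.

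**Figure D3:**
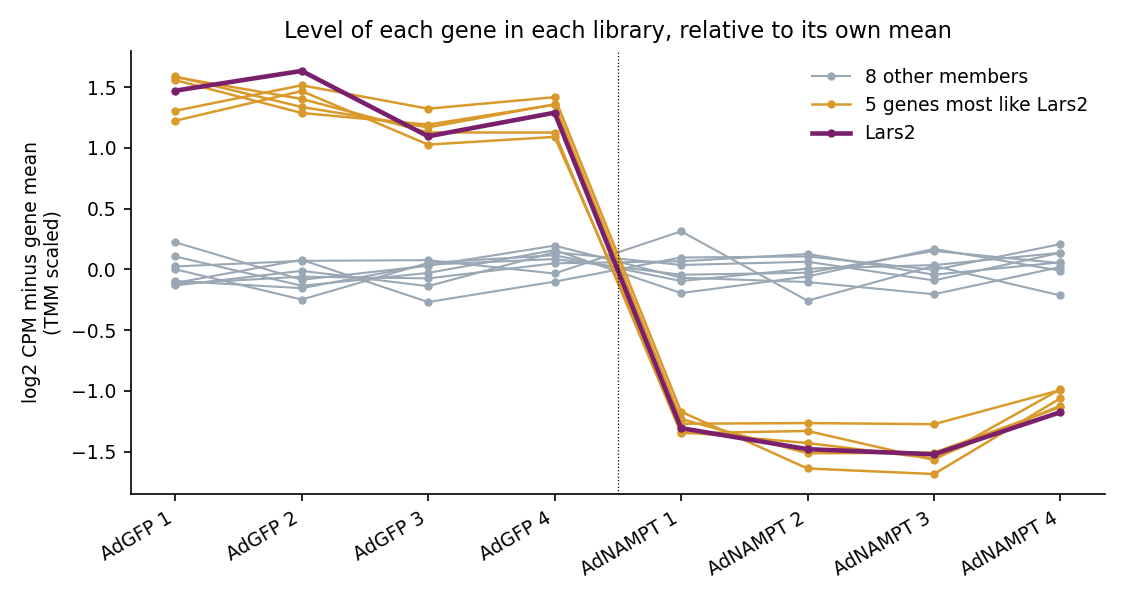
TMM-scaled log2 CPM of each gene minus its own mean over the 8 libraries, for *Lars2*, the 5 genes nearest to it and the 8 other members. Lines join the values of 1 gene and the order of replicates has no meaning. *Lars2* and its 5 nearest genes lie at 1.03 or more in every AdGFP library and at -0.99 or less in every AdNAMPT library, whereas the 8 members stay between -0.27 and 0.31.

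Likeness after centring within each group, which removes the difference between the groups, was 0.122 for Mir6236, 0.135 for Gm15564, 0.125 for *Gprin1*, 0.154 for Gm25732 and 0.0735 for *Zswim5*, against a median of 0.234 over all genes. This value cannot exceed the one over all 8 libraries, which was 0.185 or less for these 5 genes. Their place below the median was therefore fixed by how they were chosen. Members gave 0.0902 (*Rars2*) to 0.248 (*Vars2*) by the same measure. Within groups, then, *Rars2* was about as near to *Lars2* as these 5 genes were, and the distinction between them lay in the difference between groups.

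The ribosomal RNA related feature Gm42418, a long noncoding RNA gene on chromosome 17, ranked 6th in likeness (0.205). It stood at 15863, 22477, 9962 and 15273 CPM in AdGFP and 2185, 2023, 2001 and 2330 CPM in AdNAMPT, a log2 fold change of -2.90. The ratio of *Lars2* to Gm42418 was 0.208, 0.159, 0.257 and 0.192 in AdGFP and 0.239, 0.222, 0.225 and 0.238 in AdNAMPT. The ratio overlapped between the groups, although both features differed more than 6-fold. Mitochondrial ribosomal RNA took 1.77 to 2.56% of counts in AdGFP and 0.863 to 1.62% in AdNAMPT, also without overlap. Whether these features and *Lars2* share a source of reads was not tested.

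Gm15564 stood at 1384, 1108, 1078 and 1208 CPM in AdGFP and 217, 173, 179 and 225 CPM in AdNAMPT. The ratio of *Lars2* to Gm15564 was 2.39, 3.22, 2.37 and 2.42 in AdGFP and 2.41, 2.60, 2.51 and 2.46 in AdNAMPT. The groups overlapped, and AdGFP replicate 2, the library with more nuclear ribosomal RNA, was the highest. Against the summed CPM of the 8 other members the ratio was 16.9, 19.3, 13.1 and 13.8 in AdGFP and 2.35, 2.08, 2.10 and 2.52 in AdNAMPT, while that sum itself was 185 to 213 CPM in AdGFP and 214 to 222 CPM in AdNAMPT. Gm15564 was named for its likeness to *Lars2*, Gm42418 was listed with its lower level already known, and *Lars2* was chosen for its difference, so these ratios restate those choices and are given as a description.

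**Figure D4:**
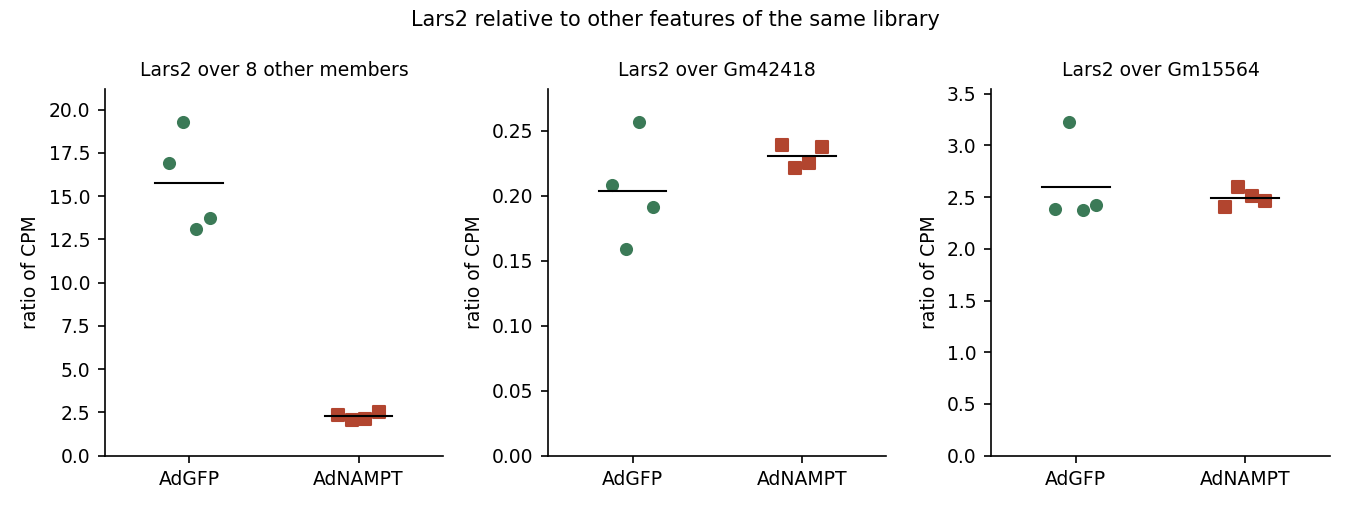
Ratio of *Lars2* CPM to the summed CPM of the 8 other members, to Gm42418 and to Gm15564 in each library, with a bar at each group mean (n = 4 per group, axes from 0). The first ratio is 13.1 or more in AdGFP and 2.52 or less in AdNAMPT, and the groups overlap in the other two. The genes were chosen with these differences known, so the panels describe the libraries and test nothing.

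Part of the *Lars2* transcript is shared with another gene. Among transcripts of 55450 genes in GENCODE M21, exact runs of at least 25 bases were sought in Lars2-201, the transcript of 3894 bases. 2 other genes had such runs, and both lay in the last exon (chr9:123461499-123462664) beyond the stop codon, which ends at 123461678, that is in the 3′ untranslated region. Gm15564 shared 1 run of 52 bases (chr9:123462048-123462099), and the gene AA474408 shared 3 runs within chr9:123461942-123462083, the longest of 41 bases.

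The runs shared with AA474408 lie in the same exon and overlap the Gm15564 run only in part. AA474408 stood at 1.504, 1.91, 1.08 and 0.44 CPM in AdGFP and 0.75, 1.23, 1.61 and 1.002 CPM in AdNAMPT, from 6 to 32 reads per library (log2 fold change 0.15, limma adjusted p = 0.944). At so few reads its level was measured too loosely to be set against that of *Lars2*. Mir6236, *Gprin1*, Gm25732, *Zswim5* and Gm42418 had no shared run with *Lars2*. Sequence outside the GENCODE transcripts was not searched. The ribosomal RNA precursor Rn45s was not found among the counted features. The study's methods describe counts of reads that aligned uniquely and without ambiguity. Counts give 1 value per gene, so the position of the reads along *Lars2* was not analysed here, and whether its difference lay in the shared stretch or along the whole transcript was not tested. Among the other members, *Yars2* had no shared run, and the longest were those with the overlapping neighbours, 2034 bases between *Iars2* and *Rab3gap2* and 284 between *Nars2* and C230038L03Rik.

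Base composition did not set *Lars2* apart from its family. Its transcript held 51.2% G and C, between *Rars2* (44.1%) and *Aars2* (59.99%), beside a median of 49.9% over 11594 tested coding genes.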

How the data were processed

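The authors aligned reads with STAR to an Ensembl mouse assembly. They counted those that aligned uniquely and without ambiguity per gene with featureCounts. The submitters' processing notes name STAR 2.4.0b, featureCounts 1.4.5 and GRCm38, and the study's methods give another STAR version; the deposited files give counts, and the CPM and RPKM derived from them by library total and exonic length. The labels name Ribo-Zero, whereas the methods describe poly-A selection. Strand use was not stated. Symbols came from GENCODE M21 (40340 of 41388 features matched).

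Following the methods, 355 ribosomal RNA features and genes not above 1 CPM in at least 3 libraries were removed. Counts were scaled by TMM (edgeR 4.0.16) and fitted with limma 3.58.1 (voomWithQualityWeights, group only; R 4.3.3), with Benjamini-Hochberg adjustment over 12270 genes. Profiles used log2 CPM with a prior count of 2. A floor of 3 counts corresponds to 0.151 to 0.250 CPM. Figures were drawn with matplotlib 3.10.9 in Python 3.11.15, tables were joined with numpy 2.4.6 and pandas 2.3.3, and DESeq2 1.42.0 served as an alternative. Fits were tested on simulated counts. Replicates are separate mice by their titles.

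The members and all gene lists were chosen with earlier results of these data known. Genes named are the members, their cytosolic counterparts, the extremes of each list, the ribosomal RNA features, *Nampt* and the 5 genes nearest to *Lars2*; mt-Tl1, mt-Tl2 and AA474408, and neighbours overlapping or sharing sequence with a member, were added afterwards. The 17 alternatives were edgeR, DESeq2, no sample weights, DESeq2 size factors, library size alone, no filter, a mean count of at least 10, Gm42418 left out, replicate number as a block and each library left out. 1 item of the lists is not reported here.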

Additional observations from a re-analysis of the deposited data

How the results depend on the processing

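Under all 17 alternatives 0 of the 8 members other than *Lars2* changed, as did 0 of the other mitochondrial synthetases, cytosolic synthetases, mitochondrial ribosomal proteins, tRNA processing genes and translation factors; the smallest adjusted p of any member was 0.211, for *Rars2* with library size alone. *Lars2* stayed between -2.83 and -2.66 on the log2 scale, and between -2.83 and -2.68 when 1 library was left out. The median of the 8 members was 0.0050 to 0.082 with 1 library left out and 0.13 with library size alone, where the median of all genes was 0.09 and 39 genes changed, 8 higher and 31 lower. Changed genes numbered 28 to 38 with 1 library left out and 75 with DESeq2, 15 higher and 60 lower, against 34, 2 higher and 32 lower; the cause was not tested. With replicate number as a block, 41 genes changed (4 higher, 37 lower), *Lars2* was at -2.71 and the members' median at 0.05. The titles do not state that the numbers pair mice, and the main fit assumed no pairing. Same-numbered libraries deviated together by correlations of 0.225, -0.05, 0.213 and 0.0052. Differently numbered libraries of the 2 groups gave -0.301 to 0.239. Depth gave 113 or more reads for every member in every library, which bounds the intervals above. The mitochondrial leucine tRNA genes mt-Tl1 and mt-Tl2 held 6 to 18 and 7 to 22 reads per library, and the reason was not tested.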

Other observations

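Of the 6 Kupffer cell and macrophage markers, limma and edgeR called 0 and DESeq2 called 1, *Vsig4*, a complement receptor of resident macrophages. Its estimate in limma, the lowest of the list, was -0.51 on the log2 scale (SE 0.12, adjusted p = 0.211), and the median of the 6 was -0.31. In limma 2 had an unadjusted p under 0.05, both lower, where 5.04% of all genes were lower at that threshold. DESeq2 called 75 of all 12270 genes, 60 of them lower. *Vsig4* stood at 26.9, 31.2, 27.2 and 24.04 CPM in AdGFP and 20.7, 16.9, 21.5 and 23.6 CPM in AdNAMPT, without overlap by a narrow margin. On this scale 0.856% of all genes were lower without overlap. *Cd68*, a lysosomal protein of macrophages, had the highest estimate of the list at -0.12 (SE 0.14).

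Summed CPM overlapped between AdGFP and AdNAMPT for markers of the other liver cells. It was 220 to 265 and 234 to 272 for endothelial markers, 310 to 358 and 339 to 392 for stellate cell markers, 26.7 to 42.2 and 29.6 to 44.4 for cholangiocyte markers, and 303 to 576 and 399 to 654 for erythroid markers. Lymphocyte markers (0.877 to 1.55 and 1.25 to 3.71) and adipocyte markers (0.410 to 2.68 and 1.08 to 1.86) were scarce in both groups. No lymphocyte marker passed the filter on low counts. Among the tested markers of these cells and of hepatocytes, limma, edgeR and DESeq2 called 0. In limma 1 cholangiocyte and 1 stellate cell marker had an unadjusted p under 0.05, both higher, where 4.65% of all genes were.

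Of 9 genes found for RNAs that carry no poly-A tail, 5 passed the filter on low counts (Rn7sk, Rmrp, Rpph1, Terc and Scarna2) and 1 was at 0 in all libraries. Their summed CPM was 14713 to 21128 in AdGFP and 20215 to 24754 in AdNAMPT, which overlapped. Limma, edgeR and DESeq2 called 0 of the 5 tested, with 0 at an unadjusted p under 0.05 in limma. The extremes were Terc, the telomerase RNA (log2 fold change 0.35, SE 0.16, limma adjusted p = 0.527), and Scarna2 (-0.04).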
